A study of Mus musculus with 3 samples.

Results

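Dividing cells were identified in lung single-cell suspensions as those with 3 or more of the 5 genes Mki67, Top2a, Birc5, Ube2c and Cdk1 above 0. They numbered 343 of 19614 cells, with 78 in the CONV library, 145 in the CONV AsiDNA library and 120 in the FLASH library. Each library came from 1 female wild-type C57BL6/J mouse whose thorax received 13 Gy and whose lungs were taken 5 months later, by droplet sequencing with 10x Genomics 3′ chemistry. The CONV mouse was irradiated at a conventional dose rate. The CONV AsiDNA mouse was irradiated in the same way after AsiDNA at 100 mg/kg on the days before and 200 mg/kg on the day of irradiation. The FLASH mouse was irradiated at an ultra-high dose rate. AsiDNA is a short double-stranded DNA that mimics a double-strand break and acts as a decoy for DNA repair proteins. With 1 mouse per condition no test between conditions was possible, and control libraries were not analysed here. The ranges in parentheses are exact 95% binomial intervals (Clopper-Pearson). They account for the number of cells counted in 1 library and not for the spread between mice. Where a count was 0, the share it allows is given as 3 cells of the total, which is somewhat lower than the upper bound of the exact interval.

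A dividing cell copies its DNA in S phase, prepares for division in G2 and separates its chromosomes on a spindle in M phase, and each step draws on its own set of genes. Mki67 encodes a protein that coats mitotic chromosomes and serves as the common marker of cycling cells. Top2a encodes the topoisomerase that untangles replicated DNA, Birc5 encodes survivin of the chromosomal passenger complex, Ube2c encodes a ubiquitin-conjugating enzyme of the anaphase-promoting complex, and Cdk1 encodes the kinase that drives entry into mitosis. In mm10 coordinates Mki67 lies at chr7:135689784-135716361, Top2a at chr11:98992943-99024189, Birc5 at chr11:117849251-117855743, Ube2c at chr2:164769898-164778822 and Cdk1 at chr10:69335146-69352938. Alveolar macrophages are known to renew themselves in the airspace, lymphocytes divide after activation, and most epithelial and endothelial cells of an adult lung are out of the cycle.

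The 5 genes belong to the large group whose promoters are switched on late in the cycle. Such promoters commonly carry CCAAT boxes, bound by the factor NF-Y, and the cell cycle genes homology region, for which the letters TTTGAA were searched. Both were sought on either strand in the 250 bases before the start of each gene in the RefSeq promoter table (GRCm38.p6). A CCAAT box on the other strand reads ATTGG here. A match to TTTGAA on the other strand likewise reads TTCAAA. Of 27025 promoters, 34.5% held CCAAT, 16.3% held TTTGAA and 5.73% held both. Of the 5 rule genes 4 held both, and in the window of Birc5 neither run of letters was found. Of the 36 mitosis genes followed below, 31 were in the table, and 24 of these held CCAAT, 8 held TTTGAA and 7 held both. Of 34 replication genes, 29 were in the table, with CCAAT in 16, TTTGAA in 3 and both in 2. A match describes letters only. The Top2a, Mki67 and Cdk1 promoters are shown because these genes carry the rule and hold both runs, with every match in capitals, each read 5′ to 3′ on the minus strand.
Top2a, chr11:99024190-99024439, 6 CCAAT and 2 TTTGAA matches: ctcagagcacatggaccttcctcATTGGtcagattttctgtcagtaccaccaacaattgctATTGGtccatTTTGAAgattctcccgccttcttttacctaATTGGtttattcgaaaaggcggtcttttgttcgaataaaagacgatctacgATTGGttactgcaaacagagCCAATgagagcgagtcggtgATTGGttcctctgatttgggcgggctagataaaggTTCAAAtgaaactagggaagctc
Mki67, chr7:135716380-135716629, 3 CCAAT and 2 TTTGAA matches: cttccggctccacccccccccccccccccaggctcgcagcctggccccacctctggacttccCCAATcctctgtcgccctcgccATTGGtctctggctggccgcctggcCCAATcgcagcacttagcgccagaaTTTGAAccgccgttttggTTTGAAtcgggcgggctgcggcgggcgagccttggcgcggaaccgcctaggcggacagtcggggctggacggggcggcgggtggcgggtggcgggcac
Cdk1, chr10:69352939-69353162, 3 CCAAT matches and 1 of its 2 TTTGAA matches, since 26 bases of the window are not shown: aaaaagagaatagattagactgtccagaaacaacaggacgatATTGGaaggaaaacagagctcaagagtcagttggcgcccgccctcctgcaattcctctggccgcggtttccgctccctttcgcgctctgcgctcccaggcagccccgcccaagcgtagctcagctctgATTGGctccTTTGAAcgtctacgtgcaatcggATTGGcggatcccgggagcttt

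The libraries held 6370, 6979 and 6265 cells after filtering, in the order CONV, CONV AsiDNA and FLASH. Before filtering, which removed 8 cells in all, their summed adjusted counts were 23908890, 26417388 and 23383510, and the median cell held 3450, 3678 and 3621. An adjusted count is the whole number recovered from a deposited logarithm, and since the adjustment behind it is unknown, a gene at 0 is described as listed at 0. Shared cell barcodes numbered 16, 9 and 17 between pairs of libraries, and 1 dividing cell carried one.

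The rule chose the cells, so the levels of the 5 genes are a description. Mki67 was above 0 in 77 of 78, 144 of 145 and 118 of 120 dividing cells, with a median of 7, 6 and 7.5 adjusted counts where present. Top2a was above 0 in 74, 143 and 118 dividing cells at a median of 11.5, 11 and 13. Birc5 was found in 75, 137 and 112 of them, Ube2c in 63, 127 and 100, and Cdk1 in 61, 132 and 100. Mki67 and Top2a were thus near universal in all 3 libraries, whereas Cdk1 was missing from 17 of 78 CONV cells. In the 6292, 6834 and 6145 cells that were not chosen, Top2a was above 0 in 86, 24 and 30, and Cdk1 in 8, 4 and 5.

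The rule drew its line through a thin part of the distribution. Cells with exactly 2 of the 5 genes numbered 13, 9 and 9, and cells with exactly 3 numbered 10, 11 and 11. All 5 genes were above 0 in 48, 114 and 79 cells. The cells with exactly 3 genes had a median sum over the 5 genes of 9.5, 10 and 8 adjusted counts, against 3, 5 and 3 in the cells with 2 genes. Just outside the rule the CONV library held 138 cells with a single gene, against 47 and 63 in the others. Dividing cells were also deeper, with median totals of 4980, 4616 and 4915.5 adjusted counts against 3443.5, 3630 and 3600 in the remaining cells. Its part in the shares below was not tested, other than by thinning all cells to the same total as described in the closing section.

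**Figure D1:**
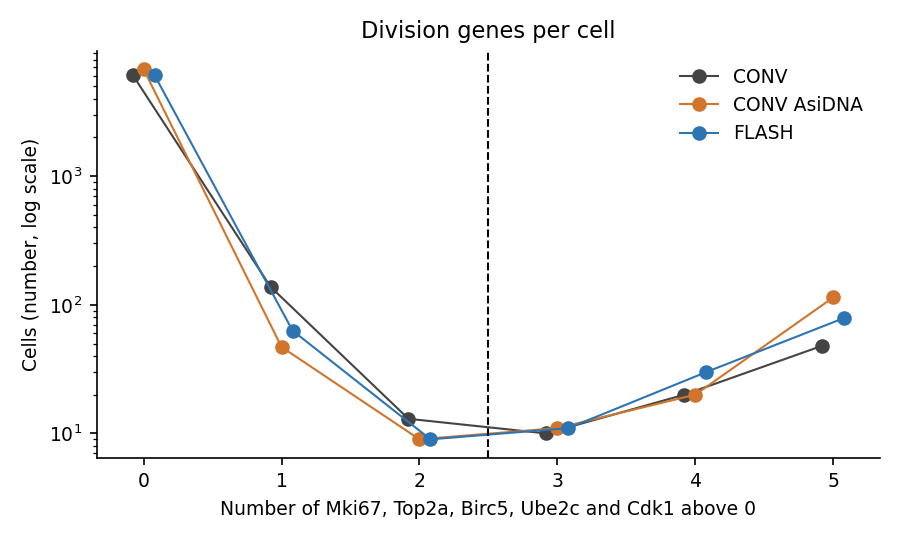
Number of cells (logarithmic axis) with 0 to 5 of the 5 rule genes above 0 in each library, with the threshold as a dashed line. The counts fall to between 9 and 13 cells at 2 genes and rise again to 48, 114 and 79 at 5 genes.

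Dividing cells were least frequent in the CONV library. They made up 1.22% of CONV cells (0.969 to 1.53), 2.08% of CONV AsiDNA cells (1.76 to 2.44) and 1.92% of FLASH cells (1.59 to 2.29). The CONV interval lay below both others, which overlapped each other. It stayed below CONV AsiDNA in every alternative but the one without Xcr1 or Clec9a cells given below. It met that of FLASH also with 2 or more rule genes (1.15 to 1.75 and 1.72 to 2.44), with a replication gene rule (0.57 to 1.02 and 1.01 to 1.59) and without the highest doublet scores (0.762 to 1.28 and 1.11 to 1.72). Both comparisons with CONV rest on the same CONV library, and a difference between libraries cannot be told apart from a difference between 3 mice. Groups of cells that should hold few dividing cells gave a background. Among cells with Foxj1, the ciliated cell regulator, 0 of 291, 0 of 419 and 1 of 300 met the rule, where a count of 0 allows up to 1.03% and 0.716%. Among cells with the neutrophil genes S100a8, S100a9 and Csf3r, 0 of 261, 1 of 292 and 0 of 288 met it, with limits of 1.15% for CONV and 1.04% for FLASH.

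Sorting by lineage genes placed the dividing cells mainly among T cells, alveolar macrophages and cells with none of the lineage genes. The sort used Chil3, a secreted chitinase-like lectin, or Marco, a scavenger receptor, for alveolar macrophages. It used Cd3e or Cd3g of the T cell receptor complex, Cd79a of the B cell receptor, the adhesion protein Epcam for epithelium, and the junction cadherin Cdh5 for endothelium. In CONV the 78 dividing cells comprised 9 in the alveolar macrophage class, 29 T, 0 B, 5 epithelium, 0 endothelium and 35 other. In CONV AsiDNA the 145 comprised 20, 26, 0, 6, 1 and 92 in the same order. In FLASH the 120 comprised 21, 31, 5, 14, 3 and 46. The T class was the largest sorted class in every library, and the largest class of all was the one without a lineage gene. No CONV dividing cell carried genes of several lineages, against 6 and 6 in the other libraries. Among all cells 9, 290 and 178 did so, mostly macrophage class cells with Epcam in CONV AsiDNA and FLASH, so this gap was not limited to dividing cells.

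T cells made up 37.2% of the CONV dividing cells (26.5 to 48.9), 17.9% of those of CONV AsiDNA (12.1 to 25.2) and 25.8% of those of FLASH (18.3 to 34.6). Cells of no lineage class made up 44.9% (33.6 to 56.6), 63.4% (55.0 to 71.3) and 38.3% (29.6 to 47.7). The alveolar macrophage class made up 11.5% (5.41 to 20.8), 13.8% (8.63 to 20.5) and 17.5% (11.2 to 25.5), and these intervals overlapped. The intervals of CONV and CONV AsiDNA stood apart for T cells and overlapped for the other two classes. Those of CONV AsiDNA and FLASH stood apart for cells of no lineage class.

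**Figure D2:**
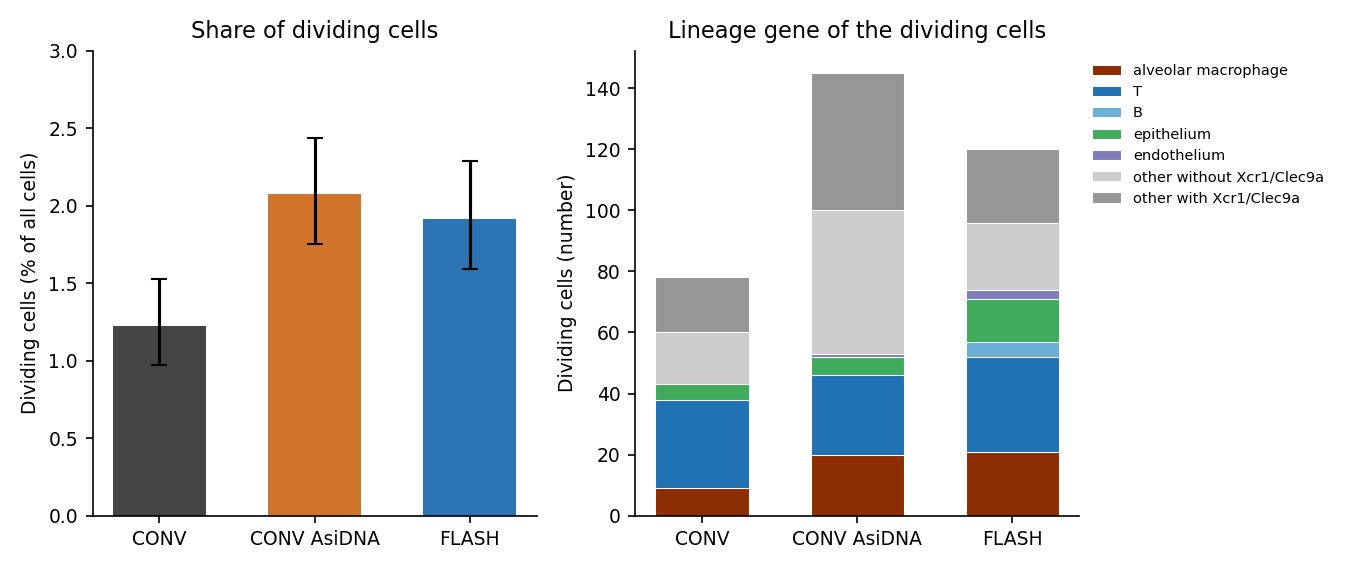
Dividing cells as a percentage of all cells of each library with exact 95% intervals, and the number of dividing cells in each lineage class. Cells without a lineage gene are split into those with and without Xcr1 or Clec9a. CONV lies at 1.22% against 2.08% and 1.92%, and T cells take 37.2% of its dividing cells.

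The mix of dividing cells depends on how many cells of a lineage were captured, so the share of each lineage that divided was taken next. Of alveolar macrophage class cells, 9 of 960 in CONV (0.938%, 0.43 to 1.77), 20 of 678 in CONV AsiDNA (2.95%, 1.81 to 4.52) and 21 of 490 in FLASH (4.29%, 2.67 to 6.48) met the rule. The CONV interval was below both others. It stayed below FLASH in every alternative run but overlapped CONV AsiDNA in several, among them rules of 2 or 4 of the 5 genes, the other gene sets and thinning to 1000 counts (0.065 to 0.919 and 0.82 to 2.91). That class made up 15.1%, 9.71% and 7.82% of all cells, in the opposite order to its dividing share. Counted against all cells, dividing cells of this class were 0.141%, 0.287% and 0.335%.

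T cells showed no such separation. Of the T class 29 of 1397 in CONV (2.08%, 1.4 to 2.97), 26 of 975 in CONV AsiDNA (2.67%, 1.75 to 3.88) and 31 of 1213 in FLASH (2.56%, 1.74 to 3.61) were dividing, with overlapping intervals. The large T share among the CONV dividing cells therefore stood beside a T dividing share that was not higher than in the other libraries. Of all CONV cells 21.9% were in the T class, against 14.0% and 19.4%.

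In the B class 0 of 1336 CONV cells and 0 of 1598 CONV AsiDNA cells met the rule, which allows up to 0.225% and 0.188%. In FLASH 5 of 1157 did (0.432%, 0.14 to 1.01). The endothelial class gave 0 of 364, which allows up to 0.824%, 1 of 446 and 3 of 483, so both classes held few dividing cells in every library. The Epcam class gave 5 of 639 (0.782%, 0.255 to 1.82), 6 of 820 (0.732%, 0.269 to 1.59) and 14 of 705 (1.99%, 1.09 to 3.31), with the FLASH share close to that of all FLASH cells. Among cells without a lineage gene 35 of 1674 (2.09%, 1.46 to 2.9), 92 of 2462 (3.74%, 3.02 to 4.56) and 46 of 2217 (2.07%, 1.52 to 2.76) were dividing, and the CONV AsiDNA interval lay above both others.

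**Figure D3:**
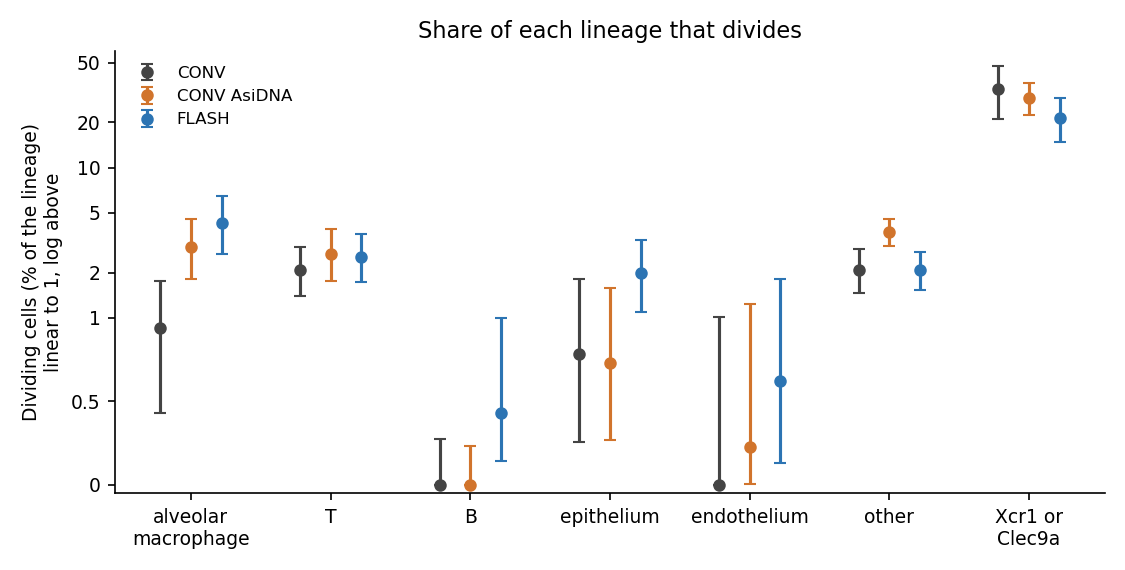
Percentage of each lineage class that met the dividing rule in each library, with exact 95% intervals. The alveolar macrophage class runs from 0.938% in CONV to 4.29% in FLASH, whereas the T class stays between 2.08% and 2.67%.

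The alveolar macrophage label was checked against 13 markers of the type. They include the sorting genes Chil3 and Marco, so each cell held at least 1 by construction. At least 3 of them were above 0 in 9 of 9, 19 of 20 and 16 of 21 dividing cells of the class, against 99.5%, 98.2% and 100% of those not dividing. Chil3 was above 0 in all 50 dividing cells, with a median of 70, 58 and 61 adjusted counts, while Marco was above 0 in 0, 6 and 6. The mannose receptor Mrc1 was found in 8, 19 and 15 and the lipase Lpl in 9, 19 and 13. Among marker lists of cell types, alveolar macrophage markers were the most numerous in 8 of 9, 19 of 20 and 14 of 21. Of the remaining FLASH cells, monocyte markers led in 2, T markers in 1 and epithelial markers in 1. A further 3 had fewer than 3 markers of any list. Most dividing cells of the class thus carried macrophage genes beyond those of the sort. Exceptions were 1 CONV AsiDNA and 5 FLASH cells with fewer than 3 markers, each of which had S100a8, S100a9 or the monocyte gene Ly6c2. S100a8 and S100a9, alarmins of neutrophils and their precursors, were above 0 together in 2 CONV AsiDNA and 4 FLASH dividing cells. The granule genes Ngp and Camp, chosen after their values were seen, were each above 0 in as many. The label thus went against the data for these cells. With the class defined instead by 3 or more markers, the dividing share was 1.02% of 1073 (0.513 to 1.83), 2.77% of 685 (1.68 to 4.3) and 3.40% of 500 cells (1.99 to 5.39), so that CONV overlapped CONV AsiDNA and not FLASH.

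Several macrophage genes differed in frequency between the libraries, with the 1 CONV AsiDNA and 5 FLASH cells of few markers included in the counts. The osteopontin gene Spp1 was above 0 in 7 of 9, 15 of 20 and 6 of 21, against 80.0%, 70.2% and 75.9% of the class not dividing. The lysosomal glycoprotein Gpnmb was above 0 in 2, 9 and 4, against 68.7%, 36.3% and 48.2%. The lipid droplet gene Cidec was listed at 0 in all 9 CONV cells and above 0 in 14 and 13, against 18.2%, 72.6% and 80.0% of those not dividing. The keratin Krt79 was above 0 in 0, 10 and 9, against 14.7%, 48.0% and 65.0%. Cidec and Krt79 were thus less frequent in CONV among dividing and remaining cells of the class alike. Cdkn1a, the p21 inhibitor induced by p53, was above 0 in 6 of 9, 16 of 20 and 8 of 21, against 55.9%, 54.4% and 56.7% of the class not dividing. As summed adjusted counts scaled to a common total (CPM, as used below), Cdkn1a stood at 460.3, 705.1 and 488.9 in dividing cells. In the class not dividing it stood at 305.1, 355.8 and 360.5 CPM. In FLASH a smaller share of dividing cells thus had Cdkn1a, while its summed level was higher. The log2 ratios, 0.58, 0.97 and 0.43, were all below the 1 used below to call a gene.

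Dividing cells of the alveolar macrophage class ranked high for resemblance to simulated mixtures of 2 cells. Among the 6% of cells of each library with the highest Scrublet score were 9 of 9, 18 of 20 and 13 of 21 of them, against 4.63%, 5.93% and 6.61% of the class not dividing. In T cells the numbers were 1 of 29, 6 of 26 and 7 of 31, against 0.877%, 0.632% and 1.78% of those not dividing, so dividing T cells also ranked above their class. Without these cells 0%, 0.322% and 1.79% of the class divided, in the same order of libraries. Of the dividing cells 0, 2 and 8 were left, and the CONV interval (0 to 0.406) then overlapped that of CONV AsiDNA (0.039 to 1.16). Their part in the difference was not tested.

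Dividing T cells carried T cell markers, with varying coreceptors. Cd3e was above 0 in 29 of 29, 25 of 26 and 31 of 31, and Cd3g in 28, 26 and 31. The sort required 1 of these genes, so their presence is no finding. Of the marker lists of cell types, the T list had the most genes above 0 in 29 of 29, 26 of 26 and 31 of 31. That list holds 15 genes, both sorting genes among them. Cd8a or Cd8b1, the chains of the cytotoxic coreceptor, were above 0 without Cd4 in 15 of 29 CONV cells (51.7%, 32.5 to 70.5), 10 of 26 CONV AsiDNA cells (38.5%, 20.2 to 59.4) and 8 of 31 FLASH cells (25.8%, 11.9 to 44.6), with overlapping intervals. In T cells not dividing the shares were 25.5%, 34.9% and 39.8%, so the order of the libraries was opposite. Cd4 alone was above 0 in 3, 7 and 9 dividing T cells, and neither coreceptor in 8, 9 and 12. Foxp3, the regulator of regulatory T cells, was above 0 in 1, 5 and 0. The death receptor Fas was above 0 in 8, 2 and 2, against 6.58%, 12.0% and 8.88% of T cells not dividing. The costimulatory receptor Cd28 was above 0 in 14, 21 and 27.

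Most of the dividing cells without a lineage gene were leukocytes, and dendritic cell genes led. The leukocyte gene Ptprc was above 0 in 30 of 35, 74 of 92 and 39 of 46. Xcr1, a chemokine receptor of cross-presenting dendritic cells, or Clec9a, their receptor for dead cells, was above 0 in 18, 45 and 24. Among the marker lists of cell types, dendritic markers were the most numerous in 18, 44 and 30 of these cells. Counting the Epcam class as well, dividing cells with Xcr1 or Clec9a numbered 18, 49 and 29. This group was formed after values had been seen, and it is named by its genes.

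A large part of the Xcr1 or Clec9a cells divided in every library. The share was 18 of 54 in CONV (33.3%, 21.1 to 47.5), 49 of 169 in CONV AsiDNA (29.0%, 22.3 to 36.5) and 29 of 136 in FLASH (21.3%, 14.8 to 29.2), with overlapping intervals. These cells were 0.848%, 2.42% and 2.17% of all cells, so they supplied 23.1%, 33.8% and 24.2% of the dividing cells. Without them the dividing share of all other cells was 0.950% (0.726 to 1.22), 1.41% (1.14 to 1.72) and 1.48% (1.2 to 1.82). The CONV interval then overlapped both others, and CONV AsiDNA was no longer above FLASH. The class II gene H2-Ab1 was above 0 in 18, 49 and 29 of them, at a median of 52.5, 47 and 53 adjusted counts. The growth factor receptor Flt3 was above 0 in 17, 32 and 25. Ccr7, which marks migrating dendritic cells, was listed at 0 in all 96.

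The 17, 47 and 22 dividing cells of no lineage class that lacked Xcr1 and Clec9a were mixed. Cd209a, a lectin of another dendritic cell type, was above 0 in 1, 18 and 8. The interleukin-33 receptor Il1rl1 was above 0 in 2, 17 and 9, and the stem cell factor receptor Kit in 0, 11 and 2. Among cells of no lineage class that were not dividing, Il1rl1 without Xcr1 and Clec9a was above 0 in 14.2%, 10.7% and 6.86% and Kit in 12.2%, 9.16% and 4.79%, so CONV was highest there. The complement gene C1qa of interstitial macrophages was above 0 in 6, 0 and 1, against 27.1%, 17.9% and 15.0% of those not dividing, with CONV highest in both. B cell genes appeared here as well, since Cd79a was listed at 0 in these cells. Ms4a1, which encodes CD20, was above 0 in 4, 6 and 0. All 5 FLASH cells of the B class, which Cd79a defined, had the B cell factor Pax5. An absence of dividing B class cells in CONV and CONV AsiDNA is therefore a statement about Cd79a.

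The Epcam class went against its label in CONV AsiDNA and FLASH and held to it in most of the 5 CONV cells. Epithelial markers were the most numerous in 3 of 5, 0 of 6 and 4 of 14 of its dividing cells, and dendritic markers in 1, 4 and 6. Ptprc, Xcr1, Clec9a or Flt3 was above 0 in 2, 6 and 10 of them. A surfactant gene, Sftpc or Sftpb, was above 0 in 3, 0 and 2, and the epithelial cadherin Cdh1 in 4, 0 and 3. The cells are therefore called by their gene. The endothelial class held to its label, with its markers leading in 1 of 1 and 3 of 3 dividing cells.

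Replication and mitosis genes outside the rule were counted per dividing cell to place cells within the cycle. A median of 15, 14 and 16.5 of 34 replication genes and of 25, 25 and 25 of 36 mitosis genes was above 0. At least 17 replication genes and 18 mitosis genes were both present in 29 of 78, 42 of 145 and 45 of 120 cells. Mitosis genes alone reached that level in 35, 77 and 52, replication genes alone in 9, 19 and 15, and neither in 5, 7 and 8. Cells with mitosis genes alone were thus the most frequent kind in each library, under a rule that itself rests on genes of G2 and M phase. In T cells the median number of replication genes was 17, 16 and 20, in the alveolar macrophage class 12, 14 and 21, and in Xcr1 or Clec9a cells 13, 18 and 14. No lineage had the highest number in all 3 libraries.

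**Figure D4:**
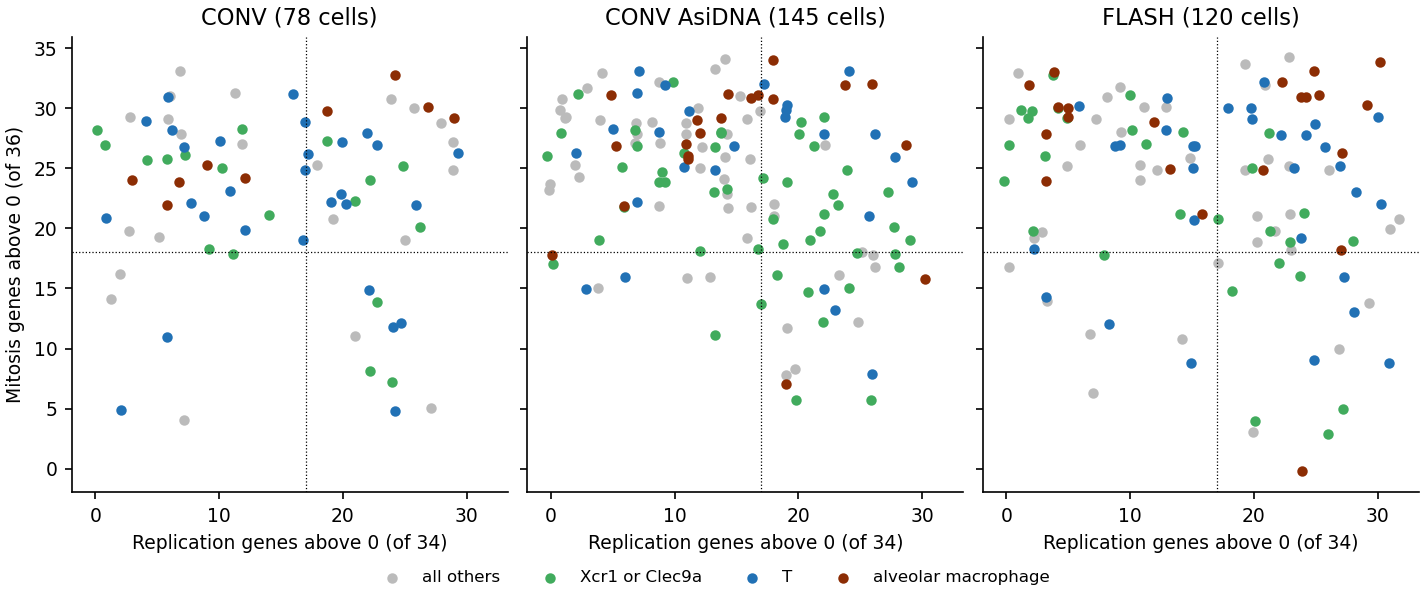
Each dividing cell by the number of 34 replication genes and of 36 mitosis genes above 0, with points shifted by up to 0.3 to separate them and dotted lines at 17 and 18 genes. Most cells lie above the mitosis line in each library, at a median of 25 genes, and spread widely along the replication axis.

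Expression was then compared between dividing and remaining T cells of the same library, as summed adjusted counts scaled to 1000000 per group of cells (CPM) and the log2 ratio after adding 10. A gene was called when the ratio reached 1 on the log2 scale in either direction. Only genes above 0 in at least 3 cells of each side entered, and since 3 counts weigh more in few cells, genes that are low in dividing cells drop out more often. Of 3248 genes compared in all libraries 431 (13.3%) were higher in dividing T cells in every library and 53 (1.63%) lower. Scaling by the median ratio of genes instead gave 240 higher and 196 lower. This is the contrast the rule used, so the counts that follow describe the cells and nothing is read from them.

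All 22 replication genes compared, of 34 in the list, were higher in dividing T cells of every library. Over all list genes compared in a given library, 28, 22 and 26 genes, the median log2 ratios were 3.14, 2.96 and 3.19, against 0.44, 0.31 and 0.32 over all genes. Tyms, the thymidylate synthase, had log2 ratios of 4.63, 4.55 and 4.31 and led by its lowest value. Ccne2, the cyclin that opens S phase, came last at 1.08, 3.21 and 3.18. Mcm3, a subunit of the replicative helicase, stood at 279, 228 and 517 CPM in dividing T cells against 22.8, 26.1 and 32.7 in the others. All 8 mitosis genes compared, of 36, were also higher, from Ckap2 at 4.29, 4.96 and 4.19 to the condensin gene Smc4 at 1.80, 1.81 and 1.24. The other mitosis genes mostly lacked 3 cells above 0 on the not dividing side. Ccna2, the cyclin of S and G2, was above 0 in 22 of 29, 24 of 26 and 29 of 31 dividing T cells.

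Chromatin and tubulin genes held the largest ratios outside the rule when genes were ranked by their lowest value over the libraries. By list median they stood at 3.43, 3.71 and 3.81, below the mitosis genes at 3.84, 4.10 and 3.91. Of 20 in the list 19 were compared and 18 were higher in every library. The linker histone gene Hist1h1b stood at 3600, 2687 and 4299 CPM in dividing T cells against 19.1, 12.9 and 17.4 in the rest, at log2 ratios of 6.95, 6.88 and 7.30. Stmn1, which destabilises microtubules, stood at 6.36, 6.99 and 6.56. The histone gene Hist1h4c was not called in every library, at 1.57, 0.78 and 2.00. Histone genes are near-identical copies, so their separate values are uncertain.

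The lists of G1 drivers and of brakes were each split. Of 8 compared genes from the list of G1 drivers, which holds 14, 4 were higher in every library and 1 was lower. That list also holds Cdc25b, a phosphatase gene that acts at entry into mitosis and is not specific to G1. It stood at 144, 411 and 287 CPM in dividing T cells against 15.3, 32.3 and 28.3 in the rest. Ccnd2, a D-type cyclin that carries growth signals into G1, was the lower one, at 176, 289 and 93.3 CPM against 543, 756 and 689. Its relative Ccnd3 was close to level, at log2 ratios of 0.27, -0.49 and 0.21, all below the median over all genes.

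Of 10 compared brakes, of 16 in the list, 3 were higher and 2 lower in every library. The higher ones were the INK4 inhibitors Cdkn2c, at log2 ratios of 2.04, 2.65 and 2.64, and Cdkn2d, at 1.76, 1.21 and 1.58, with the pocket protein gene Rbl1 at 2.04, 1.77 and 1.17. The lower ones were the antiproliferative genes Btg1, at 710, 648 and 639 CPM against 4467, 3053 and 3596, and Btg2, at 176, 157 and 28.7 CPM against 832, 634 and 563. Over the compared brakes the median log2 ratio was 0.13, 0.03 and -0.39, near or below that over all genes. The kinase inhibitor gene Cdkn1b lay on the side of the Btg genes, at log2 ratios of -0.85, -1.02 and -1.22, so the kinase inhibitors did not move together. Under median-ratio scaling the count became 1 brake higher and 3 lower in every library.

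**Figure D5:**
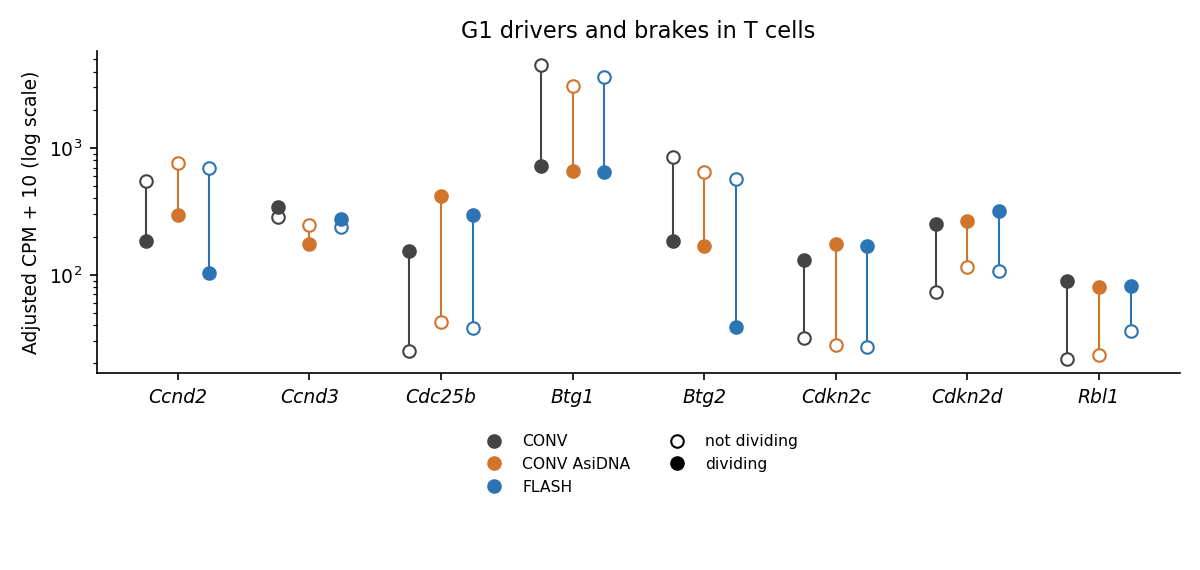
Expression of 8 genes from the lists of G1 drivers and brakes in T cells of each library, as summed CPM plus 10 on a logarithmic axis. Open points are cells not dividing and filled points are dividing cells. Ccnd2, Btg1 and Btg2 lie lower in dividing cells of every library, and Cdc25b, Cdkn2c, Cdkn2d and Rbl1 lie higher.

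Outside the lists, Il7r came first among lower genes in dividing T cells when ranked by the ratio nearest to 0 over the libraries. This receptor for interleukin-7 keeps resting T cells alive, and it stood at 71.9, 105 and 187 CPM against 1571, 1327 and 1708, a log2 ratio of -4.27, -3.54 and -3.13. It was above 0 in 5, 4 and 7 dividing T cells, against 86.5%, 79.8% and 84.9% of the rest. The nuclear RNA Malat1 stood at 6195, 7702 and 2203 CPM against 33020, 31570 and 34050. Malat1 takes up many counts, and its part in the other ratios was not tested.

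Dividing cells of the alveolar macrophage class were compared in CONV AsiDNA and FLASH, since CONV held fewer than 10. The cells with few macrophage markers were included. Of 3990 genes 371 (9.3%) were higher in both libraries and 98 (2.46%) lower. All 14 replication genes, all 8 mitosis genes and all 12 chromatin and tubulin genes compared were higher in both. Ranked by the lower of both libraries, Mcm7 of the helicase led replication at log2 ratios of 4.39 and 4.46, and the spindle midzone kinesin gene Kif23 led mitosis at 5.34 and 5.32. Hmgb2, a DNA-bending chromatin protein, stood at 1908 and 2798 CPM against 51.6 and 40.3. These sets were thus on the same side as in T cells.

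Some genes from the lists of brakes and G1 drivers were shared with T cells. Of 8 genes compared from the list of G1 drivers 5 were higher in both libraries. Among them were Cdc25b, the gene of entry into mitosis, at log2 ratios of 2.57 and 2.81 and the kinase gene Cdk2 at 2.13 and 1.73. Cdkn2d stood at 259 and 163 CPM in dividing cells against 3.71 and 3.47 in the rest, at log2 ratios of 4.30 and 3.68, and was above 0 in 4 of 9 CONV dividing cells. Rbl1 stood at log2 ratios of 2.32 and 1.89. These were the only 2 of 10 compared brakes that were higher in both libraries, and none was lower in both. Cdkn2c was above 0 in 11 of 20 and 8 of 21 dividing cells and could not be compared, since only 1 and 0 of the class not dividing had it. Ccnd2 stood at 695 CPM against 573 in CONV AsiDNA and at 398 against 970 in FLASH, on opposite sides. The difference between lineages was not tested. Among lower genes, the matrix metalloproteinase gene Mmp19 stood at 187 and 90.5 CPM against 941 and 1038. The part of the cells with few macrophage markers in this was not tested.

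In Xcr1 or Clec9a cells 88 of 1428 genes compared (6.16%) were higher in dividing cells of every library and 13 (0.91%) lower, or 38 and 7 with a minimum sum of 50. Of 11 replication genes 10 were higher, with Rrm1, a subunit of ribonucleotide reductase, at log2 ratios of 2.92, 3.47 and 3.37 in the lead by its lowest value. The helicase gene Mcm6 was not called throughout, at 0.80, 2.38 and 1.59. All 13 chromatin and tubulin genes compared, of 20 in the list, were higher. Tubb4b was not among them, being above 0 in 13 of 18, 35 of 49 and 0 of 29 dividing cells. In those not dividing it was above 0 in 0 of 36, 3 of 120 and 3 of 107. Only 1 of 36 mitosis genes could be compared in every library, and it was higher. Pclaf, which binds the replication clamp, stood at 1047, 1347 and 1349 CPM against 49.2, 48.6 and 11.1. Ccnd2 was again lower, at 123, 103 and 131 CPM against 351, 584 and 425, and it was the only G1 driver called of 3 compared. None of 5 compared brakes was called in every library, and Btg2 was near level at log2 ratios of -0.32, -0.37 and -0.11. The chemokine gene Ccl17, made by activated dendritic cells, was lower at 579, 150 and 498 CPM against 4221, 2640 and 2820.

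The last comparison set the dividing cells of one lineage against each other across libraries, where both comparisons with CONV share its library. In dividing T cells 58 of 1874 genes (3.09%) were higher and 153 (8.16%) lower in CONV than in CONV AsiDNA, and 69 of 1958 (3.52%) were higher and 69 (3.52%) lower than in FLASH. In T cells not dividing these shares were 0.968% and 1.07%, and 1.17% and 0.694%. Between CONV AsiDNA and FLASH 100 of 1925 genes (5.19%) were higher and 47 (2.44%) lower in CONV AsiDNA, against 0.55% and 0.18% in T cells not dividing. With a minimum sum of 50 in place of 20, fewer genes were compared and these counts fell to 7 and 42, 6 and 12, and 24 and 4. The dividing groups held only 26 to 31 cells. Few members of the cycle lists were called between libraries. The median log2 ratio of the replication genes in dividing T cells was 0.01 where CONV was set over CONV AsiDNA and -0.35 where it was set over FLASH, and that of the mitosis genes was -0.35 and 0.06. Over all genes the medians were -0.07 and -0.02. For CONV AsiDNA set over FLASH the median was -0.37 for replication genes, 0.40 for mitosis genes and 0.05 over all genes. Of 5 genes compared from the list of G1 drivers 2 were called lower in CONV than in CONV AsiDNA, at a median of -0.69.

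Of 2609 genes compared, 23 (0.882%) were higher in dividing T cells of CONV than in both other libraries and 58 (2.22%) lower. These counts were 5 and 16 with a minimum sum of 50, and 35 were higher with 1 added in place of 10. The cold-inducible RNA-binding protein gene Cirbp stood at 271 CPM in CONV against 35.0 and 86.1, and at 434 against 172 and 202 in T cells not dividing. The chromatin protein gene Ptms stood at 287 CPM against 87.5 and 86.1. On the other side S100a11, a calcium-binding protein, stood at 168 CPM against 1278 and 632, and at 293 against 374 and 340 in cells not dividing. Gata3, the regulator of type 2 helper cells, stood at 55.9 CPM against 210 and 266, and was above 0 in 6 of 29, 14 of 26 and 18 of 31 dividing T cells. In T cells not dividing Gata3 stood at 158, 179 and 160 CPM. Cirbp thus moved the same way in cells dividing and not dividing, and the gap in Gata3 was seen among the dividing cells, without a test of that difference. Among the same dividing T cells, Cd4 alone was above 0 in 3, 7 and 9, and Cd8a or Cd8b1 without Cd4 in 15, 10 and 8. The part of this mix in the Gata3 gap was not tested.

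Dividing cells of the alveolar macrophage class, again with the 1 and 5 cells of few markers, were compared between CONV AsiDNA and FLASH, where 90 of 1999 genes (4.5%) were higher and 52 (2.6%) lower in CONV AsiDNA. With a minimum sum of 50 the counts fell to 20 and 15. In the class not dividing the shares were 0.376% and 0.188%. The median log2 ratio of CONV AsiDNA over FLASH was -0.13 over 23 replication genes, -0.20 over 34 mitosis genes and -0.43 over 18 chromatin and tubulin genes, of which 4 were called lower.

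In dividing Xcr1 or Clec9a cells 26 of 2514 genes (1.03%) were higher in CONV than in both other libraries and 42 (1.67%) lower. Against CONV AsiDNA alone 41 of 2090 (1.96%) were higher and 90 (4.31%) lower in CONV, and against FLASH alone 37 of 1577 (2.35%) and 70 (4.44%). Between CONV AsiDNA and FLASH 87 of 2332 (3.73%) were higher and 39 (1.67%) lower in CONV AsiDNA. With a minimum sum of 50 these pairs became 6 and 29, 7 and 25, and 6 and 6, and 2 genes were higher in CONV than in both others, or 40 with 1 added in place of 10. In those not dividing the same comparisons gave 4.19% and 4.81%, 5.09% and 4.98%, and 1.94% and 1.29%, so the shares were not larger throughout among dividing cells. Rgs1, which dampens chemokine receptor signals, stood at 1080 CPM in CONV against 133 and 201, and at 1107 against 492 and 447 in those not dividing. Fkbp5, a chaperone gene induced by glucocorticoids, stood at 234 CPM against 51.5 and 41.5, and at 246 against 37.0 and 50.9 in those not dividing. S100a11 was again lower in CONV, at 201 CPM against 922 and 920, and at 603 against 1111 and 1127 in those not dividing. These differences thus ran in the same direction in dividing and remaining cells of the group. No gene was tested, since each condition was 1 mouse.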

How the data were processed

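Lung single-cell libraries of 1 mouse each were sequenced with 10x Genomics 3′ chemistry. The submitters' processing notes name Cell Ranger 6.0.0 and mm10, and the methods name R and Seurat. The deposited tables of genes by cells hold natural log values, each the log of a whole number plus 1, and that number was recovered here as an adjusted count. How the authors adjusted the numbers is not given in the sources that were used here, raw molecule counts had been planned for, and no count model was fitted. A further 4 tables with 12 per-sample columns hold identifiers of another organism and authors' comparisons (fold changes and p-values), and were not used.

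Cells with at least 200 genes and at most 20% mitochondrial counts were kept unless called a doublet, 19614 in all. Lineage classes were assigned in the order of the rule, so that a cell with genes of several lineages took the first. Scrublet (scanpy 1.11.5) at an expected rate of 0.06 called 1, 2 and 2 doublets, and these cells were removed. With so few calls it did not work as a caller. Its scores were used as an alternative. Counts were summed per library, lineage and dividing state, scaled to CPM and compared as log2 ratios after adding 10, for genes with a sum of at least 20 and at least 3 cells above 0 per side. A gene was called at an absolute log2 ratio of 1. Lineages with at least 10 dividing cells in a library were compared, which left the alveolar macrophage class with 2 libraries. The step was tested on simulated data. Python 3.11.15, numpy 2.4.6, scipy 1.17.1 and pandas 2.3.3 were used. Gene positions come from the annotation of mm10 and promoters from RefSeq.

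Genes named are the rule and lineage genes, examples of the lists, per lineage the 10 largest and 5 most negative ratios of dividing over other cells, and the 5 genes farthest above and 5 below in CONV. The members, the lists of genes and the alternatives were chosen with earlier results of these data known. Ngp, Camp, the cell state genes of each class and the Xcr1 or Clec9a group were chosen after values were seen.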

Additional observations from a re-analysis of the deposited data

How the results depend on the processing

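Sign was followed only for the genes picked by the size of their ratio, and no called difference among them changed sign under the alternatives run. The other called genes were followed as counts only. Of the alternative values of dividing shares, main lineage shares and gene counts, 262 stayed within the interval or within 1.5 times the count and 53 did not, and of those of single genes and small classes 1189 did and 81 did not. No paired analysis was possible because each group held 1 library, and no replicate could be left out for the same reason. With 3 or more of Mcm5, Tyms, Rrm2, Tk1 and Uhrf1 as the rule, the dividing share was 0.769%, 1.49% and 1.28% (CONV, CONV AsiDNA, FLASH), and the T share was 1.36% in CONV and 1.74% in CONV AsiDNA. Thinned to 1000 counts per cell, with no cell left out, the dividing share was 0.722%, 1.27% and 1.26%. The thinned T share was 1.38%, 1.62% and 1.49%, the alveolar macrophage share 0.316% in CONV and 1.64% in CONV AsiDNA, and cells without a lineage gene made up 71.9% of dividing cells in CONV AsiDNA and 54.4% in FLASH. CONV remained lowest in dividing share under both settings, with an interval that met that of FLASH under the first (0.57 to 1.02 and 1.01 to 1.59). The thinned macrophage intervals of CONV and CONV AsiDNA overlapped. Without the highest Scrublet scores the dividing share was 0.998% (0.762 to 1.28), 1.63% (1.34 to 1.96) and 1.39% (1.11 to 1.72), and the CONV and FLASH intervals overlapped. The alveolar macrophage class then made up 0%, 1.87% and 9.76% of dividing cells, 0%, 0.322% and 1.79% of the class divided, and other cells made up 74.8% in CONV AsiDNA. Without Xcr1 or Clec9a cells, an alternative added after seeing the data, the dividing share was 0.950%, 1.41% and 1.48%, the CONV interval overlapped both others, and CONV AsiDNA was no longer above FLASH. With them as a class, also added later, other cells were 21.8%, 32.4% and 18.3% of dividing cells. Median-ratio scaling in T cells gave 240 genes higher and 196 lower in every library. With 1 added in place of 10, the genes higher in CONV than in both others numbered 35 in T and 40 in Xcr1 or Clec9a cells.

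A minimum sum of 50 leaves fewer genes to compare, and all counts between libraries fell with it. In dividing T cells 7 genes were then higher and 42 lower in CONV than in CONV AsiDNA, 6 higher and 12 lower than in FLASH, and 24 higher and 4 lower in CONV AsiDNA than in FLASH, with 5 above and 16 below both others in CONV. In the alveolar macrophage class 20 were higher and 15 lower in CONV AsiDNA than in FLASH. In Xcr1 or Clec9a cells 38 were higher and 7 lower in dividing cells of every library, 6 higher and 29 lower in CONV than in CONV AsiDNA, 7 higher and 25 lower than in FLASH, 6 higher and 6 lower in CONV AsiDNA than in FLASH, and 2 above both others in CONV. For the other movements the cause was not tested. Dividing groups of 18 to 49 cells limit these counts, and 3 adjusted counts weigh at least 21.5 CPM in dividing T cells. Rules of 2 or 4 of the 5 genes, another set of mitosis genes, stricter cell filters and stricter lineage calls kept the dividing shares within their intervals.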
